A study of Mus musculus with 28 samples.

Results

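The comparison described here was between microglia of germ-free (GF) mice, which never carried microbes, and microglia of mice that were born with microbes and received antibiotics (ABX) for 8 weeks. Its members were the wild-type (WT) animals with the titles WT_GF, 4 mice, and WT_ABX, 5 mice, or 9 of the 28 mice of the series. The series also held WT mice kept under specific pathogen-free conditions without antibiotics (SPF, 5 mice), and the same 3 housing conditions in 5xFAD mice (GF 5 mice, ABX 6 mice, SPF 3 mice), a transgenic model of Alzheimer's disease in which neurons express mutant human APP and PS1 from the Thy-1 promoter. All mice were male, were 16 weeks old and had a C57BL/6J background, and the WT mice were non-transgenic littermates. The antibiotics, given in drinking water, were vancomycin, cefoxitin, gentamicin and metronidazol. RNA came from hippocampal cells sorted as CD11b+CD45low, so each library was 1 mouse and the values describe the sorted population as a whole. GF mice came from another animal facility than the SPF and ABX mice, and among WT mice their samples also carry another style of sample description (a style they share with 5 of the 6 ABX 5xFAD mice), so germ-free housing, breeding site and, in WT mice, sample series cannot be told apart.

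Microglia are the resident macrophages of the brain parenchyma. They survey neural tissue through receptors such as P2RY12 and CX3CR1, clear debris, present antigen weakly at rest, and handle much of the lipid that they take up through APOE, the liver X receptors (LXR) and the lysosome. Microbes of the gut act on these cells at a distance, through metabolites and immune signals, and lifelong absence of microbes includes the period in which microglia mature, whereas treatment of an adult animal does not.

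Each library held 14441610 to 29977395 gene counts in the ABX WT group and 15182194 to 22058726 in the GF WT group, with 17313 to 19098 and 17382 to 18596 genes detected. The summed level of the 12 microglial markers was 71300 to 73100 CPM (read counts scaled to the library size) in GF mice, 70700 to 78000 in ABX mice and 70200 to 75700 in SPF mice. Summed markers of T and NK cells stayed at 1.02 CPM or below and those of erythrocytes at 0.635 CPM or below in the 9 mice. Summed markers of ependymal cells and choroid plexus stayed at 0.596 CPM or below in the 9 mice. In SPF mice they were at 0.168, 0.0388, 24.1, 62.2 and 52.4 CPM (WT_SPF_912, WT_SPF_925, WT_SPF_926, WT_SPF_928 and WT_SPF_936). Of 46 tested markers of neurons, astrocytes, oligodendrocytes, endothelial and mural cells, monocytes, B cells, and T and NK cells, 0 were called between GF and ABX WT mice by edgeR, with 5 at an unadjusted p under 0.05 and 1, of astrocytes, by DESeq2. Of 9 tested neutrophil markers 2 were higher in GF mice (22.2%, against 4.48% of all genes), the receptor genes Csf3r (560.7 to 579.7 against 369.8 to 529.4 CPM, 0.33, edgeR adjusted p = 0.0171) and Cxcr2 (0 to 0.993 CPM against 0 in all ABX mice). With GC content offsets 0 of the 9 were called by edgeR, with 2 at an unadjusted p under 0.05. Without 1 mouse the count was 0 (mouse WT_ABX_911 or WT_GF_229), 2 (WT_GF_199) or, for the other mice, 1. Summed neutrophil markers were at 574 to 591 CPM in GF, 394 to 536 CPM in ABX and 515 to 574 CPM in SPF mice, nearly all of it Csf3r, while the granule genes S100a8 and Ngp had 0 reads in the 9 mice, and the sort left out cells stained for Ly6G or Ly6C. Border-associated macrophage markers were also called, and are described with MHC class II.

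Mice are named by their titles, and values of single mice are given in the order WT_GF_199, WT_GF_229, WT_GF_230 and WT_GF_231 for GF and WT_ABX_909, WT_ABX_910, WT_ABX_911, WT_ABX_923 and WT_ABX_932 for ABX mice.

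The first question was whether microglia that never met microbes differ from microglia whose microbes were depleted in adult life. Of 15298 genes tested, 1053 (6.88%) differed between GF and ABX WT mice at an edgeR adjusted p under 0.05, with 686 (4.48%) higher and 367 (2.4%) lower in GF mice, and 148 of them changed at least 2-fold. The CPM ranges of the 4 GF and 5 ABX mice did not overlap for 1656 genes (10.8%), with GF mice higher for 941 (6.15%) and lower for 715 (4.67%). Against SPF WT mice, GF mice differed in 248 genes (1.62%), with 133 (0.869%) higher and 115 (0.752%) lower. The split was 239 and 118 with gene length offsets and 133 and 176 among genes with at least 10 counts in every library. The count of 248 was 1286 when only the compared groups were fitted, where GF against ABX WT mice gave 1259, so fewer calls against SPF than against ABX mice depended on the fit. It was 721 with DESeq2, 1631 with voom and 128 with GC content offsets. It was 54, 65 and 91 without mouse WT_GF_229, WT_GF_231 or WT_GF_230, and 92, 106, 113 and 159 without mouse WT_SPF_912, WT_SPF_936, WT_SPF_926 or WT_SPF_928. ABX mice differed from the same SPF mice in 0 genes (0%) by edgeR at this threshold, with 687 genes at an unadjusted p under 0.05, and in 2 genes by DESeq2. These contrasts share mice, so they are given side by side and no overlap between them was computed. The count of 1053 fell to 446 without mouse WT_GF_229, to 504 without mouse WT_ABX_911, to 587 without mouse WT_GF_231, to 610 without mouse WT_GF_230, to 627 without mouse WT_ABX_910 and to 644 without mouse WT_ABX_909.

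The direction of change followed the base composition of the genes. The median GC content was 56.0% for the genes that rose in GF mice, 42.3% for those that fell and 49.4% for all tested genes. In the lowest of 5 equal bins of GC content the median log2 fold change was -0.29, and 223 genes fell while 13 rose. In the highest bin the median was 0.27, and 406 genes rose while 5 fell. The difference between GC-rich and GC-poor genes, on the log2 scale and centred on all libraries, was 0.06, 0.32, 0.24 and 0.21 in GF mice. It was -0.30, -0.34, -0.62, -0.07 and -0.17 in ABX mice, and -0.25 to -0.07 in SPF mice, so every GF mouse lay above every other WT mouse. The source of this trend was not tested. With an offset for GC content fitted for each library, 203 genes were called, 125 higher and 78 lower, and 160 of these were among the 1053. Where a gene named below lost its call with these offsets, this is said beside it or for its group, and a call is said to be kept where it held under every setting listed in the methods that gave a value, stricter thresholds and settings added after seeing the data aside, which include GC content offsets, DESeq2, limma voom and leaving out each of the 9 mice.

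**Figure D1:**
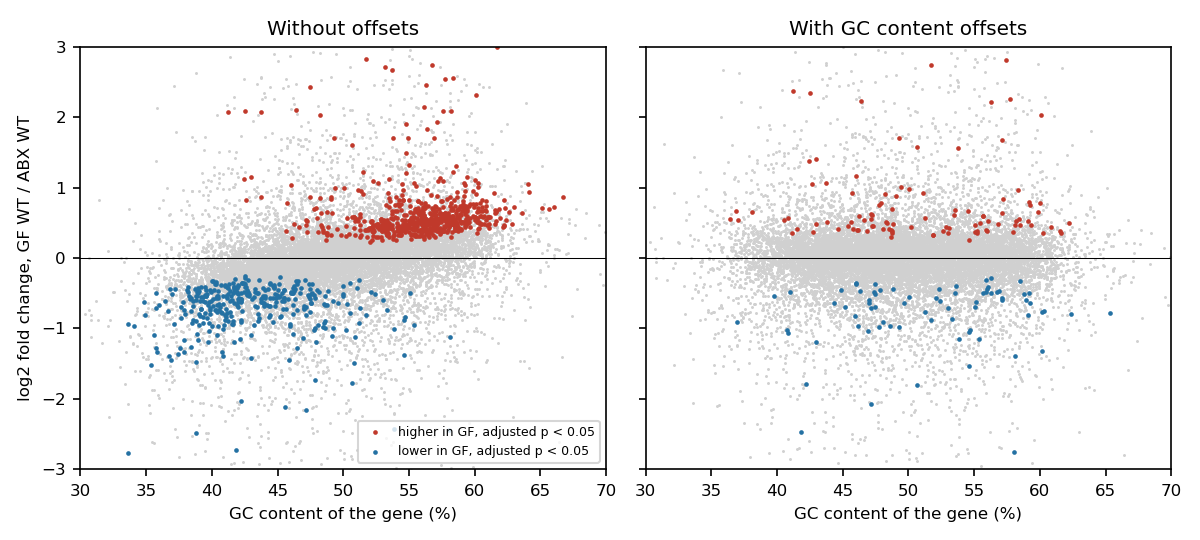
Log2 fold change of GF against ABX WT mice (y axis) against the GC content of each gene in percent (x axis), without (left) and with (right) GC content offsets, for 14793 genes of known GC content. Called genes are mostly to the upper right and lower left without offsets, and the trend of the median from -0.29 in the GC-poorest to 0.27 in the GC-richest of 5 bins is visible on the left.

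Among the changes that were kept was that of Prpf31, which encodes a splicing factor of the U4/U6.U5 small nuclear ribonucleoprotein. Its level was 84.8, 130, 136 and 128 CPM in GF mice, and 36.2, 41.5, 34.6, 37.95 and 46.5 CPM in ABX mice. SPF mice, at 38.1 to 46.1 CPM, lay with the ABX mice and well below all GF mice. The increase was 3.03-fold, a log2 fold change of 1.601 ± 0.15 (SE, edgeR adjusted p = 1.64e-07), and 1.57 with GC content offsets. Of 46 core spliceosome genes tested (6.52% called, at the 6.88% of all genes), Prpf31 was the 1 called higher, and 2, Snrpe (-0.66) and Sf3b6 (-0.48), were called lower and lost their calls with GC content offsets. Of the 34 genes tested within 1 Mb of Prpf31 on chromosome 7, 4 were called, beside 6.88% of all genes: Prpf31, Cnot3, Dnaaf3 and Lilra5. Cnot3 (0.51, edgeR adjusted p = 0.0496) lost its call with GC content offsets (0.32, edgeR adjusted p = 0.341).

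The 12 largest rises among genes that averaged at least 3 log2 CPM over all 28 mice and whose ranges did not overlap were H2-Eb1, H2-Aa, Cdk18, Prpf31, Fasn, Lilrb4a, Tmco4, Slc25a10, Axl, Cfap43, Rhbdf2 and Cdyl2, of which the class II genes and Fasn are described with their groups. This average includes the 5xFAD mice, and some of these genes were low in WT mice. Cdk18 averaged 6.06 CPM in GF and 1.57 CPM in ABX WT mice against 31.95 and 13.4 CPM in GF and ABX 5xFAD mice, and H2-Aa 33.4 and 1.67 CPM against 62.9 and 136 CPM. Cdk18, a cyclin-dependent kinase, was at 5.19, 4.84, 12.1 and 2.13 CPM in GF mice and at 0.814 to 2.06 CPM in ABX mice (log2 fold change 1.94 ± 0.37, edgeR adjusted p = 0.00315). Slc25a10, the mitochondrial dicarboxylate carrier, was at 33.0, 22.03, 33.8 and 27.1 CPM against 10.6 to 16.3 CPM (1.07 ± 0.15, edgeR adjusted p = 0.000302). Lilrb4a, an inhibitory receptor of myeloid cells, was at 7.21, 9.62, 9.34 and 12.1 CPM against 2.77 to 6.08 CPM (1.12 ± 0.22, edgeR adjusted p = 0.00367). These 3 genes kept their calls, as did Rhbdf2, a regulator of the TNF-shedding protease ADAM17 (1.04), the ciliary gene Cfap43 (1.04) and Tmco4 (1.09). Cdyl2 (1.02) and Axl (1.07) lost theirs with GC content offsets, with edgeR adjusted p values of 0.0998 and 0.0796. Cdyl2 also lost it without mouse WT_ABX_911 or WT_GF_231 (edgeR adjusted p = 0.0572 and 0.0706).

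The 12 largest falls held genes of vesicle traffic, transcription and lipid oxidation, and entries of ribosomal and mitochondrial RNA. Nbea, which encodes the vesicle-trafficking protein neurobeachin, was at 36.2, 30.4, 18.0 and 21.8 CPM in GF mice and at 66.4, 67.2, 85.9, 91.6 and 46.1 CPM in ABX mice. All GF values lay below all ABX and SPF values (SPF 54.6 to 68.0 CPM), and ABX mice had 2.68-fold more Nbea than GF mice (log2 fold change -1.42 ± 0.24, edgeR adjusted p = 0.0016). Hsd17b11, a dehydrogenase of lipid droplets, was tight in GF mice at 19.8, 21.4, 21.1 and 20.8 CPM, against 42.1, 37.3, 71.2, 36.6 and 42.1 CPM in ABX mice (-1.14 ± 0.16, edgeR adjusted p = 0.00024). Scai, a cofactor that represses MRTF-dependent transcription, was 2.64-fold higher in ABX than in GF mice (edgeR adjusted p = 0.00114). Melanophilin (Mlph), which links vesicles to myosin, was at 87.5, 42.7, 39.3 and 30.6 CPM in GF mice against 119 to 145 CPM in ABX mice, so mouse WT_GF_199 stood nearest to the ABX group. These 4 genes, the zinc finger gene Zbtb26 (-1.34) and the axonemal assembly gene Dnaaf3 (-1.12) kept their calls, while Mob1b (-1.08), a Hippo pathway adaptor, lost its call with GC content offsets (edgeR adjusted p = 0.107).

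**Figure D2:**
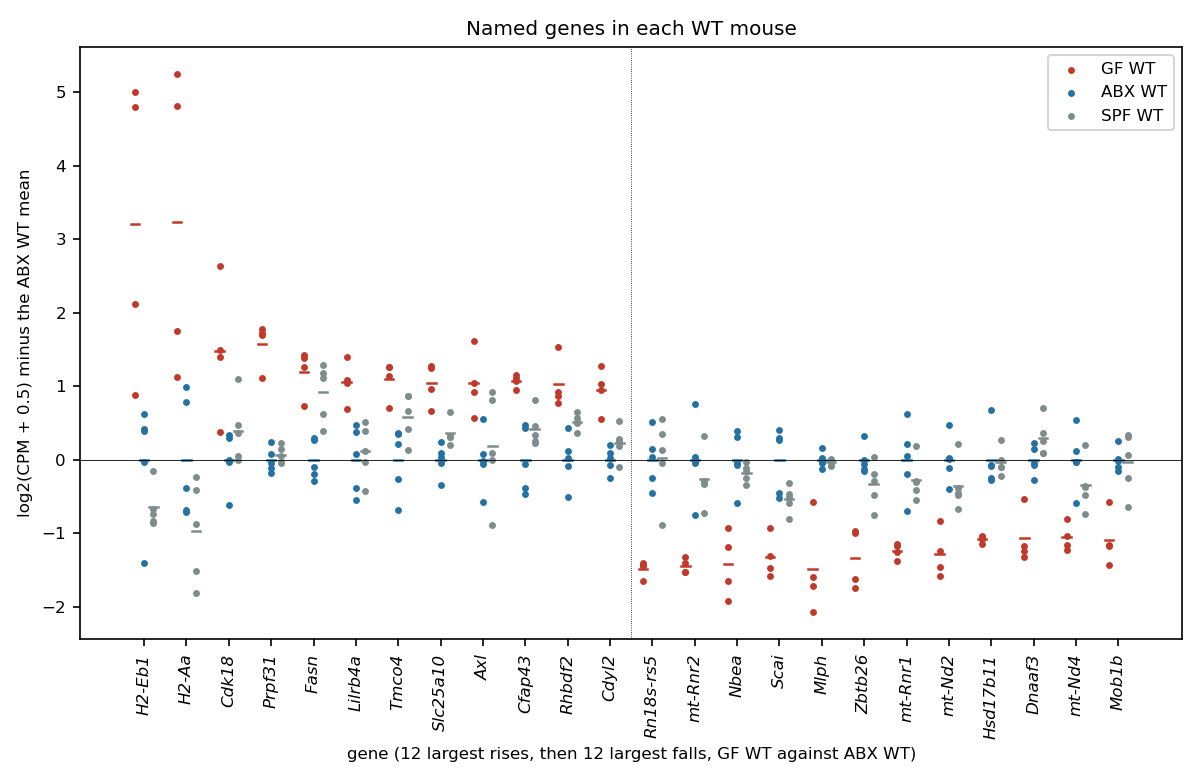
Level of the 12 genes with the largest rise and the 12 with the largest fall, as log2(CPM + 0.5) minus the ABX WT mean (y axis), in each GF, ABX and SPF WT mouse (points). By the rule for naming them GF and ABX mice do not overlap in any gene. SPF mice lie near the ABX mice for Prpf31, Mlph and Hsd17b11, and between the groups or near the GF mice for Fasn.

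Among the lipid genes described here, Apoe, Srebf2, Nr1h2 and Fasn were higher in GF than in ABX mice. Apoe, the main lipid carrier of the brain, was at 405, 955, 922 and 749 CPM in GF mice and at 361, 348, 293, 451 and 311 CPM in ABX mice. Mouse WT_GF_199 overlapped the ABX range, and the other 3 GF mice exceeded it. Apoe was 2.15-fold higher in GF than in ABX mice (log2 fold change 1.10 ± 0.23, edgeR adjusted p = 0.0048), and the call was kept, also with GC content offsets (0.79, edgeR adjusted p = 0.0398). Against SPF mice it was higher by 0.91 on the log2 scale (edgeR adjusted p = 0.0362), a call that was lost with GC content offsets (0.74, edgeR adjusted p = 0.0651). Srebf2, the transcription factor that controls cholesterol synthesis and uptake, was at 32.9, 33.5, 34.6 and 29.4 CPM in GF mice and at 14.9 to 22.3 CPM in ABX mice. No ABX mouse reached the lowest GF mouse, and the call was kept (0.88 ± 0.14, edgeR adjusted p = 0.00114). Its escort protein Scap was also higher (0.56, edgeR adjusted p = 0.00475), but not with GC content offsets (edgeR adjusted p = 0.0842). These were the 2 called genes of the 23 tested in the list of cholesterol synthesis and uptake (8.7%, near the 6.88% of all genes), whose median log2 fold change was 0.17 against -0.01 for all genes. Hmgcs1, a synthase of this pathway, was at 23.9 to 34.6 CPM in GF and 33.1 to 40.6 CPM in ABX mice (edgeR adjusted p = 0.31).

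Of the 15 LXR targets and lipid efflux genes tested, 4 were higher and 1 was lower in GF mice (33.3% called, against 6.88% of all genes, median log2 fold change 0.31), and without mouse WT_ABX_910 the count of calls was 3. The LXR beta gene Nr1h2 was at 76.6, 111, 89.9 and 106 CPM in GF mice and at 34.6 to 71.1 CPM in ABX mice (0.74 ± 0.15, edgeR adjusted p = 0.00462). Mylip, which encodes an LXR-induced ligase that degrades the LDL receptor, moved the other way, from 414 to 473 CPM in ABX mice to 285, 274, 326 and 328 CPM in GF mice (-0.55 ± 0.11, edgeR adjusted p = 0.00443), and both genes kept their calls. Srebf1, the regulator of fatty acid synthesis, was at 53.3 to 58.7 CPM against 27.4 to 45.5 CPM (edgeR adjusted p = 0.0214). With GC content offsets Srebf1 lost its call (edgeR adjusted p = 0.197), as it did without mouse WT_GF_229 or without mouse WT_ABX_909, WT_ABX_910 or WT_ABX_911 (edgeR adjusted p = 0.0516 to 0.0682). The efflux transporter Abca1 spanned 266 to 426 CPM in GF and 267 to 424 CPM in ABX mice, which was no detectable difference (edgeR adjusted p = 0.646).

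Fatty acid synthase (Fasn), which builds long-chain fatty acids, was lower in ABX than in GF mice, while the ranges of GF and SPF mice overlapped. It was at 33.5, 23.1, 36.4 and 37.6 CPM in GF mice, at 11.9, 12.8, 11.1, 16.6 and 17.0 CPM in ABX mice and at 18.1 to 34.2 CPM in SPF mice. GF mice exceeded ABX mice by 1.23 ± 0.25 on the log2 scale (edgeR adjusted p = 0.00443, 0.97 with GC content offsets) and SPF mice by 0.27 (edgeR adjusted p = 0.638), while ABX mice lay 0.96 below SPF mice, which did not pass the test. Of 29 fatty acid genes (10.3% called, near the 6.88% of all genes) 2 rose, Fasn and the beta-oxidation gene Acadvl (0.49), and Acsl4, which activates polyunsaturated fatty acids, fell (-0.54). Acadvl and Acsl4 lost their calls with GC content offsets.

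Among lysosomal genes 1 rise was kept. Gaa, the acid alpha-glucosidase that degrades glycogen in lysosomes, was at 247, 300, 234 and 274 CPM in GF mice and at 144, 136, 118, 162 and 191 CPM in ABX mice, with SPF mice at 160 to 211 CPM in between. It was 1.76-fold higher in GF than in ABX mice (log2 fold change 0.81 ± 0.11, edgeR adjusted p = 0.00014) and kept its call. Of 56 lysosome, V-ATPase and cathepsin genes tested, 5 rose and 1 fell (10.7% called, near the 6.88% of all genes, median 0.12). Gusb (0.42), Ctsa (0.40), Grn (0.31) and Ctsd (0.27), which encode beta-glucuronidase, protective protein, progranulin and cathepsin D, were the other rises and lost their calls with GC content offsets. With these offsets the list counted 1 rise and 1 fall, with voom 13 rises and 1 fall, and without mouse WT_ABX_911 it counted 3 rises.

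Of 24 homeostatic genes by which microglia are recognised, 4 were higher and 4 lower in GF mice (33.3% called, against 6.88% of all genes, median 0.06), and the count of calls was 4 without mouse WT_GF_229 or WT_GF_231 and 5 without mouse WT_GF_230 or mouse WT_ABX_911. With GC content offsets 2 were higher and 0 lower. P2ry12, the ADP receptor that guides microglial processes, was at 8779, 7750, 8032 and 7825 CPM in GF mice and at 10810, 10580, 10780, 9624 and 11930 CPM in ABX mice. The ranges did not overlap, but the difference of -0.41 ± 0.11 (edgeR adjusted p = 0.0222) was -0.02 with GC content offsets (edgeR adjusted p = 0.956). P2ry12 also missed the threshold without mouse WT_ABX_911 or without mouse WT_GF_229, WT_GF_230 or WT_GF_231 (edgeR adjusted p = 0.0526 to 0.0732). Gpr34, a lysophosphatidylserine receptor, behaved alike, at 2949 to 3174 CPM in GF and 3644 to 4577 CPM in ABX mice (-0.44, edgeR adjusted p = 0.00475) and 0.10 with the offsets.

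Serpine2, a secreted inhibitor of serine proteases, was the 1 homeostatic gene with a kept call. It was at 959, 2165, 1746 and 2041 CPM in GF mice and at 1112, 1050, 993, 942 and 1161 CPM in ABX mice. Mouse WT_GF_199 lay within the ABX range and the other 3 well above its highest value. The log2 fold change was 0.72 ± 0.15 (edgeR adjusted p = 0.00592). Tmem119 (4975 to 5669 CPM in GF, 4304 to 5589 in ABX mice) and the fractalkine receptor gene Cx3cr1 (5589 to 7060 and 4904 to 6327 CPM) did not pass the test, with edgeR adjusted p values of 0.654 and 0.236. Among 16 microglial transcription factors (18.8% called, against 6.88% of all genes), 1 rose and 2 fell (Maf and, with a call lost under GC content offsets, Bhlhe41), and the count was 1 without mouse WT_ABX_909 or WT_GF_229 or WT_GF_231. Maf, which encodes a basic leucine zipper factor of macrophages, fell from 312 to 465 CPM in ABX mice to 215, 246, 242 and 244 CPM in GF mice and kept its call (-0.64 ± 0.14, edgeR adjusted p = 0.0058). The microglial identity factor Sall1 was at 647 to 754 CPM in GF and 663 to 844 CPM in ABX mice (edgeR adjusted p = 0.742).

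Of the 25 genes of the disease-associated microglial state, 5 rose and 0 fell (20% called, against 6.88% of all genes), with a median of 0.35 against -0.01 for all genes. These were Apoe, Axl, Csf1, Lyz2 and Ctsd, and Apoe was the 1 member that was called with GC content offsets. The count was 1 without mouse WT_GF_230, 2 without mouse WT_GF_229, 3 without mouse WT_ABX_909, WT_ABX_911 or WT_ABX_932, and 8 without mouse WT_GF_199. Axl, a receptor for cells that expose phosphatidylserine, was at 30.9, 28.5, 46.1 and 22.2 CPM in GF mice and at 14.2, 9.72, 15.6, 21.99 and 14.6 CPM in ABX mice (1.07 ± 0.27, edgeR adjusted p = 0.0158). Without mouse WT_GF_230 its edgeR adjusted p was 0.0862. The complement gene C1qb was at 7282, 9798, 9725 and 9404 CPM in GF mice against 5707 to 7238 CPM in ABX mice (0.42 ± 0.11, edgeR adjusted p = 0.0148), and at 0.17 with GC content offsets (edgeR adjusted p = 0.375). C1qb also missed the threshold without mouse WT_ABX_911 or WT_GF_229, at edgeR adjusted p values of 0.0501 and 0.0617. Trem2 (0.16), Tyrobp (-0.03), Cst7 (0.26), Itgax (0.15), Cd9 (0.07) and Clec7a (-0.18), receptors and lysosomal genes of the activated state, did not pass the test in WT mice.

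Genes of antigen presentation through MHC class II were higher in GF mice, mainly in 2 of the 4. H2-Aa, which encodes an alpha chain of the class II molecule, was at 3.62, 71.4, 52.8 and 5.86 CPM in GF mice and at 0.661 to 3.26 CPM in ABX mice. H2-Eb1, a beta chain, was at 3.09, 62.1, 53.8 and 7.99 CPM against 0.238 to 2.51 CPM. The invariant chain Cd74 was at 29.2, 284, 214 and 44.9 CPM against 13.7 to 41.2 CPM. Mice WT_GF_229 and WT_GF_230 were thus far above all other WT mice. Mouse WT_GF_231 exceeded the ABX range for the 3 genes by less, and mouse WT_GF_199 lay just above it for H2-Aa and H2-Eb1 and within it for Cd74. The log2 fold changes were 4.22 ± 0.79 for H2-Aa, 4.23 ± 0.77 for H2-Eb1, 2.54 ± 0.54 for H2-Ab1 and 2.46 ± 0.52 for Cd74 (edgeR adjusted p = 0.00299, 0.00257, 0.00607 and 0.00581). Without mice WT_GF_229 and WT_GF_230 together they were 1.39, 1.68, 0.81 and 0.50 and none passed the test (edgeR adjusted p = 0.336 to 0.704), and with voom sample weights H2-Aa and H2-Eb1 did not pass either (adjusted p = 0.116 and 0.101). These 4 were the called genes among the 14 class II genes tested (28.6%, against 6.88% of all genes), and without each mouse in turn the count was also 4. The peptide-loading gene H2-DMa, at 236 to 258 CPM in GF and 162 to 217 CPM in ABX mice, did not pass (0.34, edgeR adjusted p = 0.0959).

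The promoters of H2-Aa and H2-Eb1, 250 bases before to 50 bases after the start of the gene in RefSeq on GRCm38.p6, are shown because both genes rose together in the same mice. They lie at chr17:34287774-34288073 on the minus strand and chr17:34305617-34305916 on the plus strand, and read 5′ to 3′:
H2-Aa: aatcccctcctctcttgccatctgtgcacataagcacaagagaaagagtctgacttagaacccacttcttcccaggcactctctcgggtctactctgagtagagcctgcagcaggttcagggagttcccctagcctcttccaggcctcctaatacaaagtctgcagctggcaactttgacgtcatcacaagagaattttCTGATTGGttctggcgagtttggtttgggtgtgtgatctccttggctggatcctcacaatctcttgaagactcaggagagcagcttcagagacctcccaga
H2-Eb1: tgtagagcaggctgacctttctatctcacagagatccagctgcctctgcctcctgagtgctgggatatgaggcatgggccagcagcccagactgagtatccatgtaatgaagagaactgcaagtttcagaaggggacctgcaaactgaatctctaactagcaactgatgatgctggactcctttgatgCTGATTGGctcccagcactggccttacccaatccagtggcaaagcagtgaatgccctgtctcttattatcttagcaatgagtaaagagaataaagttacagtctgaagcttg
The capitals mark the letters CTGATTGG, the Y box by which the factor NF-Y is recruited to class II promoters, 43 and 54 bases before the start of the gene. These letters were found on either strand in 4.1% of 32851 promoters of the same length, and in 3 of the 10 class II genes of the list that had a promoter in the table, the third being H2-Oa, which did not pass the test (0.18). A match is a description of the sequence and was not tied to the level of the gene.

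Markers of border-associated macrophages, the macrophages of the meninges and perivascular spaces, moved with the class II genes. Of the 12 markers tested, 8 were higher in GF than in ABX mice, against 4.48% of all genes, with a median log2 fold change of 4.45 when the 3 genes without a read in the ABX group were set to the change that 3 reads over that group would give, and 4.61 as fitted. Cd163, a scavenger receptor of these macrophages, had 2, 68, 187 and 5 reads in GF mice and 0 reads in all ABX and SPF WT mice, which makes it at least 116-fold higher in GF than in ABX mice (floor of 3 reads over the ABX group). F13a1, a transglutaminase subunit, was at 1.75, 17.7, 3.76 and 0.258 CPM against 0 to 0.264 CPM, and the chemokine Pf4 at 0.985, 3.17, 5.04 and 0.387 CPM against 0 to 0.238 CPM. For these 3 genes mice WT_GF_229 and WT_GF_230 held the highest values, while Colec12, a scavenger receptor gene, had 28, 2, 34 and 1 reads. The summed level of the 12 markers was 691, 796, 657 and 772 CPM in GF mice, 405 to 581 CPM in ABX mice and 456 to 622 CPM in SPF mice, and most of it was Stab1, at 599 to 743 CPM in GF mice, whose call (0.62) was lost with GC content offsets. With voom 2 of the markers were called. The part of these cells in the class II result was not tested, and more such cells and more of these RNAs per cell cannot be told apart in bulk libraries. The sort took CD45low cells, a gate meant to leave out macrophages of high CD45.

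**Figure D3:**
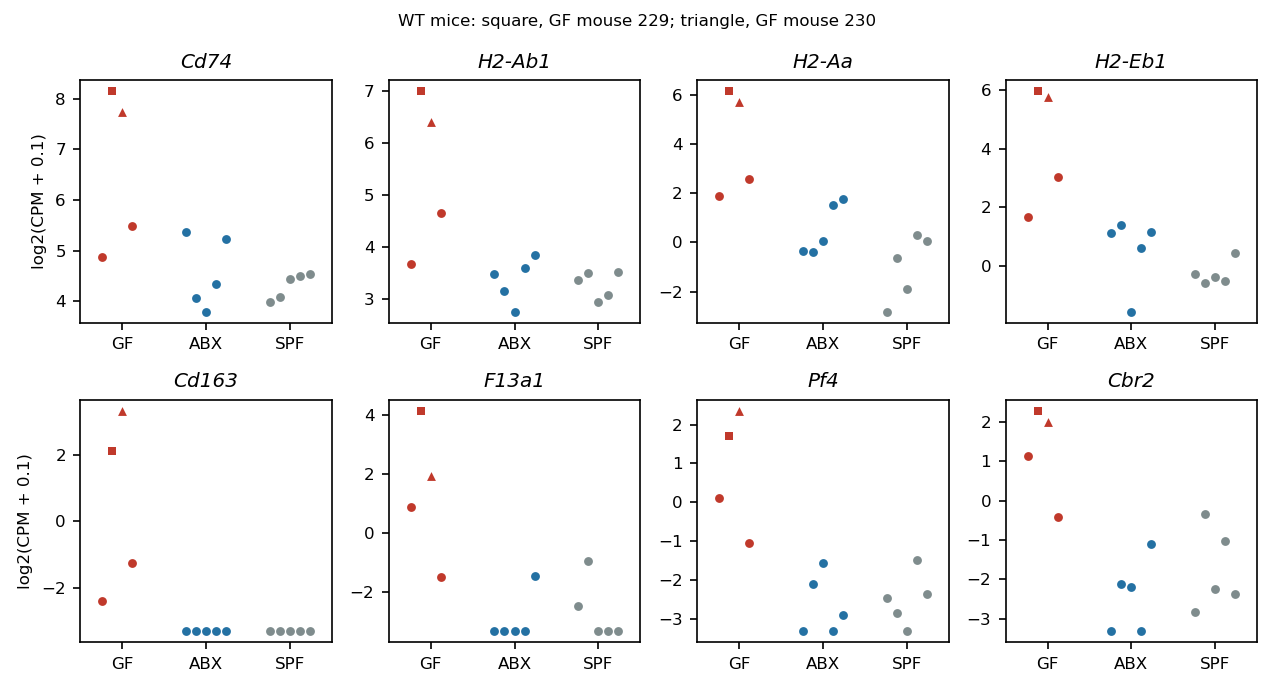
Level of MHC class II genes and of border-associated macrophage markers as log2(CPM + 0.1) (y axis) in GF, ABX and SPF WT mice (points). The square and the triangle, mice WT_GF_229 and WT_GF_230, are the highest points for H2-Aa, with 71.4 and 52.8 CPM, while the ABX mice stay at or below 3.26 CPM.

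RNA encoded in mitochondria was lower in GF mice as deposited. All 7 tested protein genes of the mitochondrial chromosome fell, against 2.4% of all genes, with a median log2 fold change of -0.94. The NADH dehydrogenase subunit mt-Nd2 was at 53.5, 42.3, 71.1 and 46.0 CPM in GF mice and at 128, 129, 177, 118 and 96.7 CPM in ABX mice (-1.28 ± 0.25, edgeR adjusted p = 0.00324). The mitochondrial 16S rRNA entry mt-Rnr2 was at 189, 188, 218 and 205 CPM against 324 to 922 CPM (-1.52 ± 0.28, edgeR adjusted p = 0.00257), and lost its call with GC content offsets (-0.86, edgeR adjusted p = 0.0544). The 12S entry mt-Rnr1 (-1.33) also lost its call with them (-0.71, edgeR adjusted p = 0.218). With GC content offsets 0 of the 7 protein genes were called by edgeR, 6 were at an unadjusted p under 0.05, and their median was -0.41. Without mouse WT_GF_229, and without offsets, 4 were called. Genes of oxidative phosphorylation that are encoded in the nucleus did not fall with them, as 1 of 76, Uqcrc1 (0.32, not called with GC content offsets), was called (1.32%, against 6.88% of all genes) and the median was -0.08. The nuclear rRNA entry Rn18s-rs5 was at 130, 151, 149 and 154 CPM in GF mice and at 298 to 584 CPM in ABX mice (-1.52 ± 0.32, edgeR adjusted p = 0.00537) and kept its call. Entries of the nuclear rRNA repeat took 0.066 to 0.085% of the counts in GF, 0.117 to 0.163% in ABX and 0.083 to 0.198% in SPF mice, and the part of ribosomal RNA carry-over in these results was not tested.

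Of 22 glycolytic genes 4 rose and 1 fell (22.7% called, against 6.88% of all genes). The count of calls was 0 without mouse WT_GF_229, 2 without WT_ABX_911 and 3 without WT_GF_230 or WT_GF_231. Hexokinase 2 (Hk2), which commits glucose to glycolysis, was at 122, 99.7, 128 and 118 CPM in GF mice and at 193, 190, 166, 183 and 152 CPM in ABX mice (-0.60 ± 0.14, edgeR adjusted p = 0.0102). It was the 1 of them called with GC content offsets (-0.71, edgeR adjusted p = 0.00948), and lost its call without mouse WT_GF_229 (edgeR adjusted p = 0.0536). Without offsets Hk3 (0.43), Gpi1 (0.44), Pkm (0.49) and Eno1 (0.39) rose. Pdia6, a protein disulfide isomerase of the endoplasmic reticulum, was at 652, 684, 670 and 686 CPM in GF mice against 473 to 576 CPM in ABX mice (0.37 ± 0.08, edgeR adjusted p = 0.00663) and kept its call. It was 1 of 4 genes of the unfolded protein response that rose among 23 (17.4%, against 6.88%). This count was 1 without mouse WT_ABX_911 and 2 without mouse WT_GF_229. Cybb, the catalytic subunit of the phagocyte NADPH oxidase, was at 3.71, 17.9, 25.5 and 8.05 CPM in GF mice and at 0.832 to 6.13 CPM in ABX mice (2.09 ± 0.49, edgeR adjusted p = 0.0106) and was the 1 called of 8 NADPH oxidase genes (12.5%, against 6.88% of all genes). Its highest values were in mice WT_GF_229 and WT_GF_230, as for the class II genes, and it lost its call without mouse WT_GF_230 (edgeR adjusted p = 0.0702). The mitotic cyclin Ccnb2 was at 3.17 to 5.73 CPM against 0.654 to 3.26 CPM (1.70, edgeR adjusted p = 0.00884) and kept its call, while 3 other cell cycle genes of 36 rose without offsets and lost their calls with them (Mcm2, Mcm7 and Cdk4). These 4 calls were 11.1% of the list, against 6.88% of all genes, and their count ran from 1 to 4 when single mice were left out. Of the 36 genes, 28 had a positive log2 fold change, and the median was 0.33, against -0.01 for all genes.

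Shares called in the inflammatory lists ran from 2.86% of type I interferon-stimulated genes to 25% of MHC class I genes, against 6.88% of all genes. Of 35 type I interferon-stimulated genes 1 was called, Parp14 (-0.79), while 27 of the 35 had a positive log2 fold change. Their median was 0.31, against -0.01 for all genes. Irf7, a driver of this response, was at 7.83, 3.10, 53.6 and 9.34 CPM in GF mice and at 8.32 to 14.0 CPM in ABX mice, so mouse WT_GF_230 alone was high. Among 23 NF-kappaB and cytokine genes (13.0% called) 1 rose (Rela, 0.39) and 2 fell (Il6, -0.89, and Pycard, -0.33), while among 27 Toll-like receptor genes (11.1% called) 2 rose (Cd14, 0.35, and Unc93b1, 0.30) and 1 fell (Ly96, -0.66). Each of these 7 genes lost its call with GC content offsets. The chemokine ligands counted 1 call of 18 (Pf4), and complement 3 of 18 (16.7%, C1qb, C4b and Itgb2), and the 3 complement calls were lost with GC content offsets. MHC class I presentation counted 3 rises and 2 falls of 20, among them Tapbp (0.52) and B2m (-0.57), and none of these with GC content offsets.

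The remaining lists had shares from 0% to 23.5% called, against 6.88% of all genes. Counts of calls were 2 of 24 immediate early genes (Jun, 0.70, and Junb, 0.65), 1 of 21 heat shock genes (Bag3), 2 of 21 clock genes (Bhlhe41 and Csnk1e), 1 of 16 glucocorticoid targets (Mt1), 2 of 82 cytosolic and 5 of 77 mitochondrial ribosomal protein genes, 2 of 34 proteasome genes, 1 of 30 autophagy genes (Atg2a), 2 of 25 TGF-beta genes (Bmpr2 and Tgfbr3), 1 of 25 antioxidant genes (Keap1) and 4 of 17 hypoxia genes (Vegfa, Ndrg1, P4ha1 and Car9). The hypoxia count was 0 to 2 without any 1 of the 9 mice. Each gene named in these counts lost its call with GC content offsets. Of 19 chemokine and purine receptors 3 fell (15.8%), among them P2ry12 and the ADP receptor gene P2ry13 (-0.40), and 0 were called by edgeR with GC content offsets, with 3 at an unadjusted p under 0.05. Without mouse WT_GF_229, WT_GF_230 or WT_GF_231 this count was 1. The mTOR list counted 4 rises of 32 (12.5%), Mlst8 (0.67), Rptor (0.54), Akt1 (0.44) and Flcn (0.41), and 0 with GC content offsets. Of the 36 histone deacetylases and methyltransferases 0 were called by edgeR, with 8 at an unadjusted p under 0.05, 2 called by DESeq2 and 3 by voom. Of the 10 tested sensors of microbial metabolites 0 were called by edgeR or DESeq2, with 1 at an unadjusted p under 0.05 and 1 called by voom. Among the latter, Hcar2, a receptor for hydroxybutyrate, was at 8.69 to 13.3 CPM in GF and 5.89 to 20.7 CPM in ABX mice. Of the 34 pathway lists with a call, 29 had a count that moved by over 1.5 times when 1 of the 9 mice was left out.

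**Figure D4:**
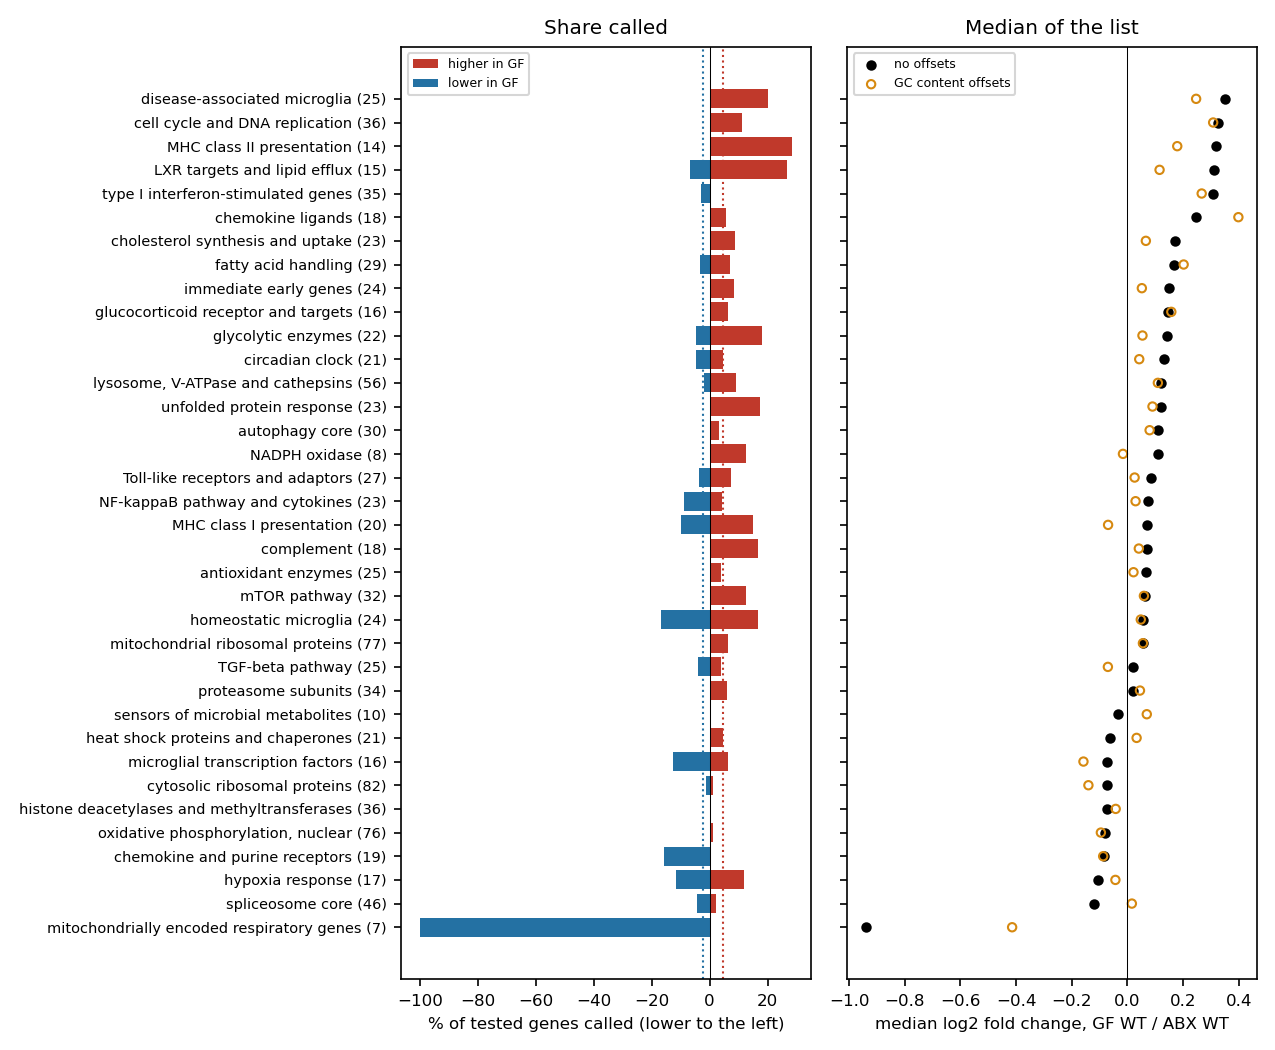
Share of tested genes called in each list, with rises to the right and falls to the left (left panel, percent), and the median log2 fold change of GF against ABX WT mice without and with GC content offsets (right panel). The number of genes tested stands beside each list, and the mitochondrially encoded genes, with a median of -0.94, are the list farthest from 0 among the pathway lists.

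The same contrast in 5xFAD mice shares no animal with the WT mice and called 1621 genes (10.6%), 929 higher (6.07%) and 692 lower (4.52%). This balance turned over with library size alone as the scaling (554 higher and 1173 lower), without a filter on low counts (583 and 725) and among genes changed at least 2-fold (74 and 167). The count of 1621 was 251 when only the compared groups were fitted. It was 980 without mouse FAD_ABX_1151, 1072 without mouse FAD_GF_181 and 2497 without mouse FAD_ABX_1482. For both genotypes the spread between mice was estimated over all mice of the series, and the GF mice came from another facility. The contrasts are therefore not independent, and the shares called in both genotypes are not read as an independent repeat. Of the 686 genes that were higher in GF than ABX WT mice, 512 (74.6%) had the same sign in 5xFAD mice, against 49.4% of all genes that were positive there, and 128 (18.7%) were also called higher there. Of the 367 lower genes, 283 (77.1%) had the same sign, against 50.55% of all genes that were negative, and 69 (18.8%) were called lower. The tilt with GC content was present in 5xFAD mice too, at a median of -0.17 in the GC-poorest and 0.13 in the GC-richest of the 5 bins. With GC content offsets, 83 of the 125 higher genes (66.4%) had the same sign in 5xFAD mice, against 50.8% of all genes, and 31 (24.8%) were also called, against 5.45% of all genes called higher there. Of the 78 lower genes, 53 (67.95%) had the same sign, against 49.2% of all genes, and 13 (16.7%) were also called, against 3.69%.

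Genes called in both genotypes with and without GC content offsets numbered 33, with 24 higher and 9 lower in GF mice, and their names were picked with the values in view. Apoe, Prpf31, Cdk18, Lilrb4a, Cfap43, Serpine2, Mylip, Hk2 and Mlph were among them. Cd33, a sialic-acid-binding inhibitory receptor of microglia, was at 671, 499, 548 and 545 CPM in GF WT mice and at 784, 750, 789, 806 and 809 CPM in ABX WT mice (-0.48 ± 0.11, edgeR adjusted p = 0.00999), and at 389 to 477 and 468 to 838 CPM in GF and ABX 5xFAD mice (-0.54, edgeR adjusted p = 0.00159). Tcn2, the vitamin B12 carrier transcobalamin, was at 730, 741, 773 and 694 CPM against 489 to 591 CPM in WT mice (0.42 ± 0.07, edgeR adjusted p = 0.0016) and at 931 to 1026 against 698 to 862 CPM in 5xFAD mice (0.36, edgeR adjusted p = 0.00123). For both genes the GF and ABX ranges were separate in WT mice, and for Tcn2 also in 5xFAD mice. Psat1, an enzyme of serine synthesis, was at 27.2, 40.4, 44.0 and 38.2 CPM against 20.6 to 26.9 CPM in WT mice (0.69, edgeR adjusted p = 0.00636) and at 166 to 286 against 104 to 142 CPM in 5xFAD mice (1.01, edgeR adjusted p = 4.62e-05).

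Several of these 33 genes had levels that separated single GF mice from the other GF mice. On chromosome 1, 9 of 1030 tested genes (0.874%) were among the 33, against 0.216% of all genes, and 5 of the 9 lay between 75 and 95 Mb (Serpine2, Ugt1a8, Glrp1, Mlph and Ano7). This window was drawn after these genes were seen, and of the 144 genes tested in it 15 (10.4%) were called in WT mice and 5 (3.47%) were among the 33. Ugt1a8, a glucuronosyltransferase gene that shares exons with its family, was at 0.0448, 7.32, 5.74 and 5.73 CPM in mice WT_GF_199, WT_GF_229, WT_GF_230 and WT_GF_231, and had 1 read over the ABX WT mice and 0 in the SPF WT mice. In 5xFAD mice it was at 0, 4.99, 6.54, 2.03 and 0 CPM in mice FAD_GF_181, FAD_GF_182, FAD_GF_184, FAD_GF_185 and FAD_GF_201 and had 0 reads in all ABX mice, which makes it at least 107-fold higher in GF than in ABX 5xFAD mice. Glrp1 was at 8.91, 72.4, 73.1 and 72.8 CPM in GF WT mice against 9.59 to 16.3 CPM in ABX WT mice, and at 9.51, 32.7, 68.5, 30.9 and 18.2 CPM in GF 5xFAD mice against 9.48 to 19.3 CPM. Mice WT_GF_199, FAD_GF_181 and FAD_GF_201 thus had levels near or within the ABX range of their genotype for both genes.

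The pseudogene entries Gm28438 and Gm4742 separated all GF from all other mice. Gm28438, at 24.61 Mb on chromosome 1, had 0 reads in the 4 GF WT and 5 GF 5xFAD mice and 9 to 20 reads in each ABX WT mouse, which makes it at least 19.4-fold higher in ABX than in GF WT mice. Gm4742 on chromosome 14 was at 2.01, 1.18, 1.77 and 1.61 CPM in GF WT mice against 0 to 0.264 CPM in ABX WT mice, and at 1.72 to 3.37 against 0 to 0.173 CPM in 5xFAD mice. Both share sequence with other loci, so reads of their parent genes may be split among them and their counts are uncertain. For these entries too, facility of origin and germ-free housing cannot be told apart.

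**Figure D5:**
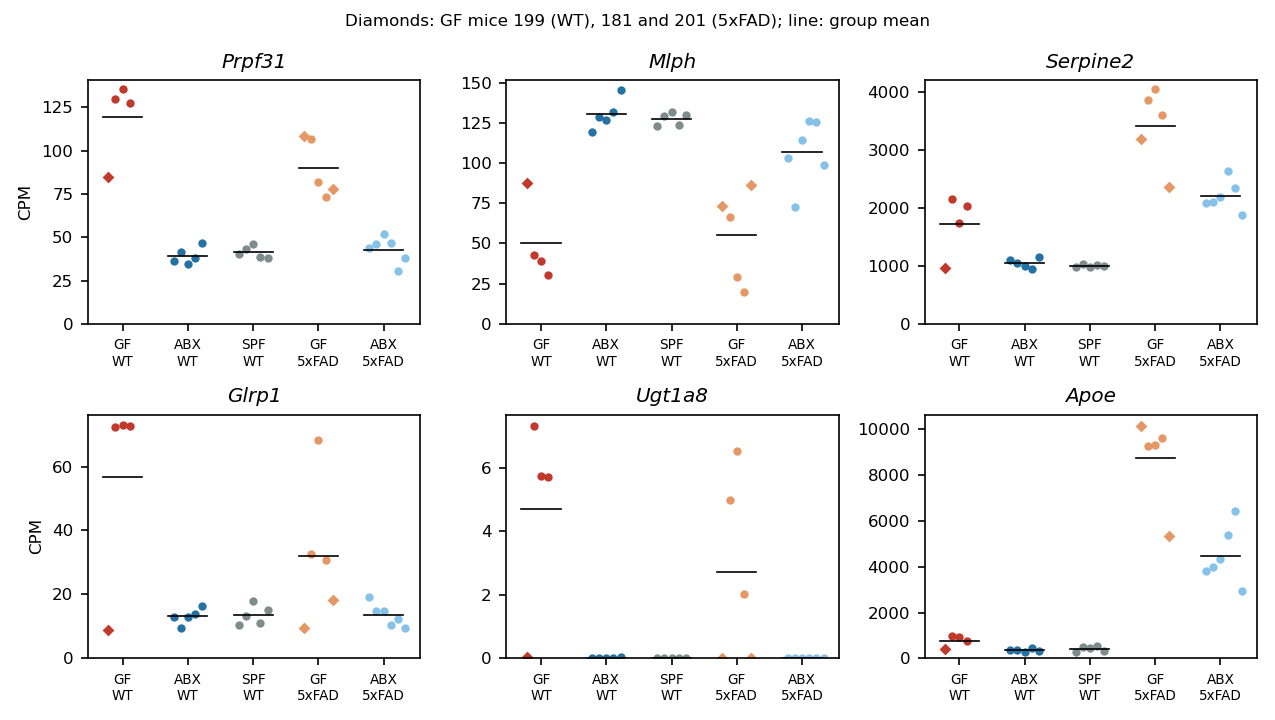
CPM (y axis) of genes called in both genotypes, in GF, ABX and SPF WT and GF and ABX 5xFAD mice (points, with a line at the group mean). The diamonds, mouse WT_GF_199 and mice FAD_GF_181 and FAD_GF_201, lie at ABX levels for Ugt1a8, at 0 to 0.0448 CPM, while the other GF mice reach 2.03 to 7.32 CPM.

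The size of the GF against ABX contrast differed between WT and 5xFAD mice for 269 genes (1.76%) by the edgeR interaction test, with 140 (0.915%) more positive and 129 (0.843%) more negative in WT mice. With library size alone as the scaling the split was 209 and 69, without a filter on low counts 166 and 68, and without mouse FAD_ABX_1151 188 and 113. The count of 269 was 67 when only the compared groups were fitted, 576 with DESeq2 and 43 without mice WT_GF_229 and WT_GF_230 together. Among WT mice it was 85, 118 and 119 without mouse WT_GF_229, WT_GF_199 or WT_GF_231, and 104, 121 and 127 without mouse WT_ABX_911, WT_ABX_910 or WT_ABX_909. Among 5xFAD mice it was 108, 150 and 175 without mouse FAD_GF_185, FAD_GF_181 or FAD_GF_184, 148 and 173 without mouse FAD_ABX_1452 or FAD_ABX_1460, and 491 without mouse FAD_GF_201. Class II and border macrophage genes were among those that differed. H2-Eb1 was higher in GF than ABX mice in WT but at 14.6 to 91.7 CPM in GF and 13.2 to 224 CPM in ABX 5xFAD mice, and its contrasts differed by 5.53 on the log2 scale (edgeR adjusted p = 0.00685). Cd163 had 438 reads over the GF and 2726 over the ABX 5xFAD mice, against 262 and 0 reads in WT mice. Tyrobp, the adaptor of TREM2, was at 746 to 1084 CPM in GF and 808 to 1041 CPM in ABX WT mice, and at 2133 to 3978 and 1505 to 2287 CPM in 5xFAD mice, so its contrast was -0.03 in WT and 0.85 in 5xFAD mice (difference -0.88, edgeR adjusted p = 0.0157). Srebf2 differed in the other direction, at 0.88 in WT and 0.15 in 5xFAD mice (difference 0.73, edgeR adjusted p = 0.0474, and 0.0529 with GC content offsets). The contrasts of Apoe, at 1.10 and 0.96, differed by 0.14 with an edgeR adjusted p of 0.879.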

How the data were processed

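Hippocampal microglia of single mice were sorted, and cDNA was made with the SMARTer Ultra Low v4 kit, tagmented with Nextera XT and sequenced as single reads without strand. The authors mapped reads to GRCm38 with STAR 2.7.2 and deposited raw counts per gene from featureCounts 1.6.2 with GENCODE M21. The deposited table names 48587 genes by symbol with their positions and has 92 spike-in entries, which were left out (at most 12 counts a library). Counts of overlapping, antisense and near-identical genes are uncertain.

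Groups followed the sample titles. Of the 28 libraries (total counts in the report set the precision), none was a duplicate of another in its group: the chi-square per degree of freedom of the 54 pairs within groups was 6.92 to 86.6. Pairs across groups were not compared. Genes passed filterByExpr (10 counts in enough libraries), and edgeR 4.0.16 (R 4.3.3, TMM factors, quasi-likelihood test, 6 groups in 1 model) gave 5 contrasts, with Benjamini-Hochberg adjusted p under 0.05 as the threshold and 15298 genes tested. Values are CPM with TMM factors, and fold changes are GF over ABX with the SE of the fit. The p-values weigh each difference against the spread between mice within groups, estimated over all 28 mice, 5xFAD mice included. Nothing in the labels says that mice came from separate litters, so a spread between litters is not covered. GC content and length came from the M21 exons and served as lowess offsets. Ranges of CPM that did not overlap reach the smallest two-sided exact permutation p of 0.0159 that 4 and 5 mice allow. A 3-read floor bounds genes at 0 and covers counting error only.

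Genes were named by rule: the 12 largest rises and falls among called genes averaging at least 3 log2 CPM over all libraries without overlap (471 and 236 eligible), up to 4 called and 2 other members of each of 36 pathway lists, and 10 genes that the study names. Other members were named where a count was small, after their values were seen. Members, lists and rules were chosen with earlier results of these data known. Alternatives were DESeq2 1.42.0, limma voom with sample weights (limma 3.58.1), other scalings and filters, offsets and left-out mice. In counts simulated for GF against ABX WT mice (14888 genes), edgeR recovered 40% of genes changed 1.5-fold, 82% of 2-fold, 94% of 4-fold and 100% of 8-fold changes, with 10 false calls. The changed genes averaged over 2 CPM. The simulated counts held no trend with GC content and no shifts of single mice, so they do not measure false calls in the real data. Promoters came from RefSeq (GRCm38.p6). Some results are not reported here.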

Additional observations from a re-analysis of the deposited data

Results flagged for a closer look

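In 66 groups of 4 or 5 mice tested for a single mouse far from the others by Dixon's test, 5 stood out, where chance gives about 1 in 20, or 3.3. Mouse WT_GF_199 had 84.8 CPM of Prpf31, against 128 to 136 CPM in the other GF mice. The same mouse had 7280 CPM of C1qb, against 9400 to 9800 CPM. Mouse WT_GF_229 had 59.6 CPM of Rhbdf2, against 35.1 to 39.0 CPM, and mouse WT_GF_230 had 6.60 CPM of Dnaaf3, against 3.61 to 4.07 CPM. Mouse WT_ABX_911 had 71.2 CPM of Hsd17b11, against 36.6 to 42.1 CPM in the other ABX mice.

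For 11 of 33 named genes the contrast of GF against ABX mice differed between WT and 5xFAD mice by the edgeR interaction test, against 269 of all 15298 genes (1.76%). Most of the 33 were chosen for the size of their WT contrast, which is part of this difference, so the counts are not read against each other. The difference, WT minus 5xFAD on the log2 scale, was positive for H2-Eb1 (5.53), H2-Aa (5.34) and Tmco4 (1.15). It was negative for mt-Rnr2 (-2.0), Rn18s-rs5 (-1.68), mt-Rnr1 (-1.65), mt-Nd2 (-1.47), mt-Nd4 (-1.28), Scai (-1.24), Hsd17b11 (-1.21) and Tyrobp (-0.88). With GC content offsets the differences of Tmco4, mt-Rnr1 and mt-Nd4 did not pass (edgeR adjusted p = 0.0745, 0.0721 and 0.0813).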

How the results depend on the processing

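The 1053 genes called between GF and ABX WT mice became 280 at an adjusted p under 0.01, 148 at an absolute log2 fold change of at least 1, 203 with GC content offsets, 1618 with DESeq2 and 2025 with voom. Leaving out 1 of the 9 mice gave 446 to 1153, and leaving out mouse FAD_ABX_1151, of neither group, gave 1242. Library size alone gave 545 higher and 441 lower genes (55.3% higher, against 65.1%). Alternatives added after seeing the data gave 259 with GC content and gene length offsets and 69 without mice WT_GF_229 and WT_GF_230. The cause of these changes was not tested, except that stricter thresholds call fewer genes by construction.

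GF against SPF WT mice gave 248 genes, and 31 and 72 at the stricter p and fold, 128 with GC content offsets, 721 with DESeq2, 1631 with voom, 1286 in a fit of the compared groups, 447 without mouse FAD_ABX_1151, of neither group, 3 without mice WT_GF_229 and WT_GF_230, and 54 to 359 without 1 mouse of the 2 groups. ABX against SPF WT mice gave 0, 2 with DESeq2 and 0 to 1 without 1 mouse of the 2 groups. GF against ABX 5xFAD mice gave 1621, then 525 and 241 at the stricter p and fold, 251 in a fit of the compared groups, and 980 to 2497 without 1 mouse of the 2 groups, the lowest without mouse FAD_ABX_1151. The difference between genotypes gave 269, then 22 and 104 at the stricter p and fold, 576 with DESeq2, 67 in a fit of the compared groups, 43 without mice WT_GF_229 and WT_GF_230, and 85 to 491 without 1 mouse of the 4 groups, the highest without mouse FAD_GF_201, whose description says WT.

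Of 127 called genes that were named or listed, 27 kept the call under every setting listed in the methods that gave a value, stricter thresholds aside, and 11 of the 127 kept it without mice WT_GF_229 and WT_GF_230. Gpr34 turned from -0.44 to 0.10 with GC content offsets, to 0.11 with length offsets as well, and to 0.07 to 0.14 with GC content offsets and 1 mouse left out. Without 1 mouse and without offsets it reached -0.49, and P2ry12 reached -0.45. P2ry12 turned to 0.042 with GC content offsets without mouse WT_ABX_932. No paired analysis was possible because the groups share no mouse numbers. Depth limits genes with few reads, such as Cd163 in WT mice.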
